A study of Homo sapiens with 30 samples.

Results

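The 40 genes described here encode the kinases, cyclins, checkpoint proteins and spindle proteins that carry a cell through mitosis. They were chosen by symbol, were all found among the 26228 genes of the expression table, and all 40 reached the mean of 1 FPKM (fragments per kilobase and sequencing depth) required for testing. mRNA was measured by RNA-Seq in SH-EP, an established neuroblastoma cell line of mesenchymal state without *MYCN* amplification, and in 4 SH-EP lines that stably carry a retroviral *MYCN* transgene, either WT or with the substitutions T58A, S62A, or T58A S62A. Each of the 5 lines was given DMSO or 1 μM CYC065 for 6 hours, with 3 libraries for each of the 10 groups. CYC065 is a small molecule inhibitor of CDK9, the kinase that releases paused RNA polymerase II, and of CDK2. The transgene is driven by an exogenous promoter, and whether each line is a clone is not given in the sources used here. The labels do not say that replicates came from separate cultures, so p-values measure only the spread between these libraries, which may be technical.

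Cells enter mitosis when CDK1, bound to cyclin B, is switched on by CDC25 phosphatases, with help from the Aurora and polo-like kinases. Kinesins and microtubule-bound proteins then build the spindle, the checkpoint proteins hold the cell until every centromere is attached, and the anaphase-promoting complex with CDC20 and UBE2C ends mitosis by marking securin and cyclin B for destruction. Most of these genes are transcribed as cells approach mitosis, through the MuvB complex with MYBL2 and FOXM1 at CHR elements (TTTGAA or TTCGAA) and through NF-Y at CCAAT boxes. In neuroblastoma, Aurora A is also known to bind MYCN protein and to slow its destruction, and the residues T58 and S62 are the phosphorylation sites that control MYCN turnover.

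*MYCN* mRNA was at 0 FPKM in all 6 SH-EP libraries and between 5.08 and 20.1 FPKM in the libraries of the 4 *MYCN* lines. Of 6 adrenergic neuroblast markers, *PHOX2A* was at 0 in all 30 libraries and the summed level stayed at or below 0.969 FPKM, whereas 6 mesenchymal markers summed to between 1568 and 6234 FPKM. Relative depth, estimated from the spacing of low values, ranged from 0.460 to 1 of the deepest library in DMSO and from 0.283 to 0.536 in CYC065. All 6 index sequences of the SH-EP libraries were also used in libraries of *MYCN* lines, so each SH-EP library was sequenced apart from those sharing its index. Whether SH-EP was pooled with the other libraries is not known here. A part of the sequencing pool in the differences from SH-EP therefore cannot be told apart from that of *MYCN*. One T58A library in DMSO stood apart in its ERCC spike-ins (synthetic RNAs added by cell number), with a scaling factor of 0.26 on the log2 scale beside 0.94 and 0.95 in the other T58A libraries. Counts for T58A are therefore also given without it. The factors of the WT libraries in DMSO were spread as well, at 0.17, 0.35 and 0.72.

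For 33 of the 40 genes, RefSeq promoter windows (build GRCh38.p14) of 300 bases, 250 before and 50 after the start, were available. TTTGAA or TTCGAA, searched on both strands, was found in 23 of the 33 (69.7%), whereas 11.3% of the 8609 tested genes with a window and 16.6% of all 27305 windows held it. CCAAT, searched likewise, was found in 26 of the 33 (78.8%), with 37.4% among tested genes and 35.7% among all windows, and the E-box CACGTG, a MYC-type sequence, in 5 (15.2%), with 10.6% and 7.43%. Matches of TTTGAA or TTCGAA and of CCAAT shared a base in *MKI67* and *CDCA8*, and neighbouring CCAAT matches overlapped in *HMMR* and *PTTG1*. These are matches of letters, not binding sites. The 150 bases before the start are shown for *CCNB1*, *CDC20* and *PLK1*, which represent entry, exit and a kinase, and for *CCNF*, *CENPA* and *PRC1*, which lay at the extremes of the CYC065 response below. Each stretch matched GRCh37, the build of the files, at 1 place on its chromosome, and its position there is given. Capitals mark CCAAT (or its reverse complement ATTGG) and TTTGAA.
CCNB1 promoter (chr5:68462827-68462976, plus strand): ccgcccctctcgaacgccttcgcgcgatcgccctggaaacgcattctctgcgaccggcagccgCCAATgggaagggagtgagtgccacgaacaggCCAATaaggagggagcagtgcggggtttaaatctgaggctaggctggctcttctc
CDC20 promoter (chr1:43824502-43824651, plus strand): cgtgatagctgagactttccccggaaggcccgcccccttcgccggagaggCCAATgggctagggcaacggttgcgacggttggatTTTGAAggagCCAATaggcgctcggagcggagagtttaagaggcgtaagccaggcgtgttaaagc
PLK1 promoter (chr16:23690060-23690209, plus strand): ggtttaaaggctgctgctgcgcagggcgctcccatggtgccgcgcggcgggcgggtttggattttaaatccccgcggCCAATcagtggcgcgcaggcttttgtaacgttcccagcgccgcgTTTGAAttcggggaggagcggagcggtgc
CCNF promoter (chr16:2479298-2479447, plus strand): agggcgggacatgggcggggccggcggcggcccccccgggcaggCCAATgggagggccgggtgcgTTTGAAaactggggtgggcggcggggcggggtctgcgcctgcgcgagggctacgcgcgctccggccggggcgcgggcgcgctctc
CENPA promoter (chr2:27008774-27008923, plus strand): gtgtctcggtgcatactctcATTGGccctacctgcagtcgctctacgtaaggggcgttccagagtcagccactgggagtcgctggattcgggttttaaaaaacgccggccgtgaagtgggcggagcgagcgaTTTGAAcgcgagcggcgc
PRC1 promoter (chr15:91537766-91537915, minus strand): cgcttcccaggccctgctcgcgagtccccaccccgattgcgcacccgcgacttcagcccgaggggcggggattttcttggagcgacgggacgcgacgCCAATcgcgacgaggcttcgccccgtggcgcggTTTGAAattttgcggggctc
Of the 6 windows, CCNB1 held no TTTGAA or TTCGAA, and each held at least 1 CCAAT. The median mean change with CYC065 was -1.84 on the log2 scale for members with TTTGAA or TTCGAA and -2.17 for the 10 without, and *CCNF* and *PRC1*, at opposite ends, both held both strings.

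In DMSO, the 40 genes ranged from 6.94 FPKM for *CDC25C* to 171 FPKM for *UBE2C*, the ubiquitin-conjugating enzyme of the anaphase-promoting complex, as means over 15 libraries. The next highest were *PTTG1*, or securin, at 169, *CCNB1*, or cyclin B1, at 165, and *CDC20* at 134. FPKM are per length, so these levels can be set beside each other. *CDC25C* lay at the 36.1 percentile of all 11575 tested genes, *ESPL1* (separase) at the 50.3, and *UBE2C* at the 96.6.

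The first comparison asked how each *MYCN* line differed from SH-EP in DMSO, on FPKM as deposited. *MYBL2*, *AURKA*, *CCNB1*, *BIRC5*, *PTTG1* and *CDC20* were higher in all 4 *MYCN* lines, with *MYBL2* on average 1.87-fold, *AURKA* 1.54-fold and *CCNB1* 1.45-fold above SH-EP. *KIF20A*, *KIF4A*, *CENPE*, *CENPF* and *CDC25B* went the other way and were lower in 3 of the 4 lines, although other members of their classes were not, as described below. By limma with Benjamini-Hochberg adjusted p under 0.05 over all 11575 genes, 14 of the 40 were higher and 7 lower in WT, where 31.6% and 22.6% of all tested genes were called. In T58A, 18 were higher and 2 lower (background 30.9% and 23.3%), in S62A 12 and 8 (31% and 23.4%), and in T58A S62A 12 and 7 (31.2% and 24.1%). As shares of the 40, 35%, 45%, 30% and 30% were higher. WT, S62A, and T58A S62A thus lay within 4 percentage points of the background for higher calls, and the median change of the 40 was between 0.07 and 0.15, beside 0.05 to 0.07 for all tested genes. Without the T58A library that stood apart, 17 members passed in T58A. The 4 comparisons share the SH-EP libraries, and the share of all tested genes called in all 4 was not computed. In bulk RNA, a change in the share of cells in mitosis and a change in RNA per cell cannot be told apart.

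**Figure D1:**
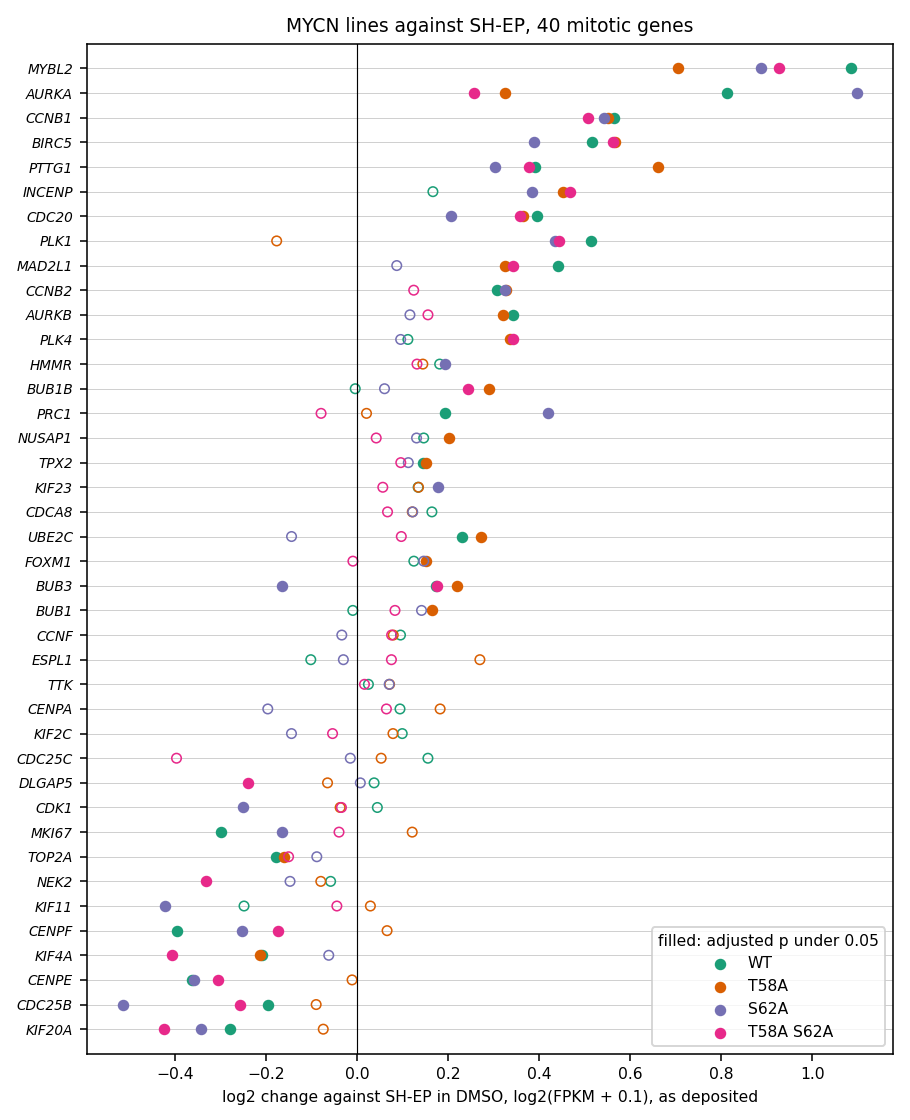
Log2 change of each of the 40 genes in the MYCN lines relative to SH-EP under DMSO (x axis, log2(FPKM + 0.1) as deposited), ordered by the mean over lines, with filled points past an adjusted p of 0.05. MYBL2, AURKA, CCNB1, BIRC5, PTTG1 and CDC20 have 4 filled points right of 0, and no gene has 4 filled points left of 0.

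Among the transcription factors, *MYBL2*, the B-Myb subunit that joins MuvB, stood at 37.02, 37.8 and 39.1 FPKM in SH-EP. It stood at 71.4, 77.9 and 94.0 in WT, 57.5, 63.2 and 65.2 in T58A, 62.7, 74.0 and 74.8 in S62A, and 63.4, 76.3 and 78.1 in T58A S62A. All 12 libraries of *MYCN* lines were above all SH-EP libraries, with a mean log2 change of 0.90 (SE 0.07, limma adjusted p = 8.4e-11). *FOXM1*, which takes over from MYBL2 late in G2, stood at 54.2, 55.0 and 57.0 FPKM in SH-EP. It lay at 55.8, 58.3 and 67.8 in WT, 59.6, 62.4 and 62.6 in T58A, 59.2, 60.6 and 64.3 in S62A, and 50.8, 55.4 and 59.2 in T58A S62A. The groups of WT and T58A S62A overlapped SH-EP, and *FOXM1* passed the threshold in T58A only (log2 change 0.15), although the mean over lines lay at 0.10 (adjusted p = 0.079).

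Of the 6 entry kinases and cyclins, *CCNB1* rose in every line while its partner kinase did not. *CCNB1* stood at 120, 121 and 122 FPKM in SH-EP, 177, 178 and 180 in WT, 172, 176 and 183 in T58A, 172, 174 and 182 in S62A, and 162, 167 and 186 in T58A S62A. *CDK1* stood at 95.9, 97.0 and 103 FPKM in SH-EP, 98.1, 101 and 105 in WT, 89.7, 97.9 and 101 in T58A, 81.2, 82.0 and 85.0 in S62A, and 92.3, 94.1 and 103 in T58A S62A. *CCNB1* groups did not overlap SH-EP, whereas *CDK1* overlapped it in every line but S62A, where it fell by 0.25 on the log2 scale (adjusted p = 0.0068). *CCNB2*, or cyclin B2, was higher in WT, T58A and S62A by 0.31 to 0.33. *CDC25B*, a phosphatase that activates CDK1, stood at 60.3, 63.1 and 63.6 FPKM in SH-EP, 50.6, 55.0 and 57.7 in WT, 58.2, 58.3 and 59.0 in T58A, 42.9, 43.5 and 44.4 in S62A, and 48.5, 52.2 and 55.8 in T58A S62A. Every *MYCN*-line library was below SH-EP, and the change passed the threshold in all but T58A (-0.20 in WT, -0.51 in S62A, -0.26 in T58A S62A). *CDC25C* and *CCNF*, which encodes cyclin F, passed it in no line.

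*AURKA*, encoding Aurora A of the centrosomes (chromosome 20, 54944445 to 54967393, minus strand, GRCh37), differed between the lines. It stood at 62.02, 63.3 and 64.9 FPKM in SH-EP, 111, 111 and 112 in WT, 76.3, 80.9 and 81.3 in T58A, 134, 135 and 139 in S62A, and 73.2, 74.0 and 80.2 in T58A S62A. The order of levels was S62A, WT, then T58A and T58A S62A, which overlapped each other, then SH-EP, and log2 changes against SH-EP were 1.10, 0.81, 0.33 and 0.26 (SE 0.08 each). Its processed copy *AURKAPS1* was listed at 1.69 to 8.72 FPKM, and reads shared between the copies cannot be told apart. *PLK1*, which encodes the polo-like kinase of mitotic entry, stood at 87.4, 89.5 and 92.7 FPKM in SH-EP, 116, 125 and 146 in WT, 73.8, 82.3 and 82.7 in T58A, 112, 120 and 133 in S62A, and 112, 127 and 127 in T58A S62A. T58A was the exception, lying below SH-EP (-0.18, adjusted p = 0.051), while the other 3 lines rose by 0.44 to 0.51. *PLK4*, the kinase of centriole duplication, was higher in T58A and T58A S62A (0.34 in each), and *NEK2*, a centrosome kinase, was lower in T58A S62A (-0.33).

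**Figure D2:**
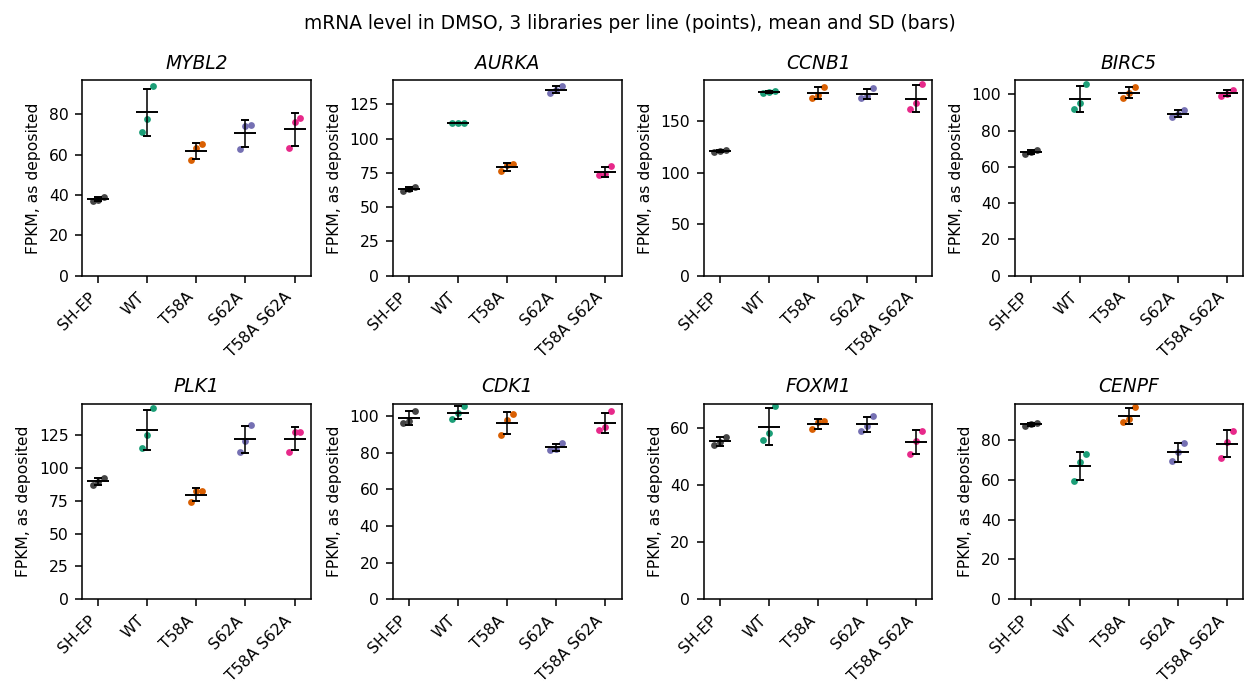
FPKM as deposited in DMSO for 8 genes, with each library as a point and the mean and SD (n = 3) as bars, by line. MYBL2, CCNB1 and BIRC5 are above SH-EP in every library of the MYCN lines, AURKA is highest in S62A, and PLK1 in T58A lies below SH-EP.

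In the chromosomal passenger complex, *BIRC5* (survivin) rose in all 4 lines, by 0.39 to 0.57, and *INCENP*, its scaffold, in T58A, S62A and T58A S62A, by 0.38 to 0.47. *AURKB*, the kinase of the complex, stood at 60.1, 60.6 and 62.7 FPKM in SH-EP, 70.7, 74.9 and 88.0 in WT, 70.2, 75.5 and 83.9 in T58A, 65.4, 66.0 and 67.4 in S62A, and 67.3, 68.0 and 69.0 in T58A S62A. No *MYCN*-line library overlapped SH-EP, but only WT and T58A passed the threshold (0.34 and 0.32). *CDCA8* (borealin) passed it in none. Of the 5 checkpoint genes, *MAD2L1*, which holds CDC20 inactive, was higher in WT, T58A and T58A S62A by 0.32 to 0.44, and *BUB3* was higher in the same lines by 0.17 to 0.22 but lower in S62A (-0.17). *BUB1* and *BUB1B* rose in T58A, *BUB1B* also in T58A S62A, and *TTK* in no line. Of the exit genes, *PTTG1* rose by 0.30 to 0.66 and *CDC20* by 0.21 to 0.40 in all 4 lines, *UBE2C* rose in WT and T58A, and *ESPL1* passed the threshold in none.

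The proliferation marker *MKI67* (Ki-67) did not rise in any line. It stood at 43.4, 44.6 and 48.3 FPKM in SH-EP, 34.7, 36.8 and 39.3 in WT, 48.1, 49.6 and 50.3 in T58A, 39.1, 40.9 and 41.5 in S62A, and 42.6, 44.3 and 45.5 in T58A S62A. WT and S62A lay below SH-EP and passed the threshold (-0.30 and -0.16), T58A overlapped it (0.12, adjusted p = 0.079). *TOP2A*, the topoisomerase that untangles sister chromatids, stood at 120, 121 and 127 FPKM in SH-EP, 98.3, 109 and 118 in WT, 107, 107 and 115 in T58A, 112, 115 and 118 in S62A, and 104, 105 and 122 in T58A S62A, and fell in WT and T58A (-0.18 and -0.16). *KIF20A*, a kinesin of cytokinesis, stood at 48.2, 50.02 and 50.8 FPKM in SH-EP, 40.6, 40.9 and 41.3 in WT, 44.2, 46.6 and 50.9 in T58A, 38.1, 39.4 and 39.9 in S62A, and 34.9, 35.4 and 40.8 in T58A S62A. Only T58A overlapped SH-EP, and the mean over lines fell by 0.28 on the log2 scale (adjusted p = 2.2e-05). *CENPE*, the kinetochore kinesin, showed the same arrangement, at 15.4, 15.5 and 16.4 FPKM in SH-EP, 10.98, 12.4 and 13.3 in WT, 14.7, 16.1 and 16.1 in T58A, 11.3, 11.9 and 13.8 in S62A, and 11.4, 13.1 and 13.8 in T58A S62A. Among the other kinesins and spindle genes, *KIF4A* was lower in WT, T58A and T58A S62A, *KIF11* in S62A and *DLGAP5* in T58A S62A, while *PRC1* was higher in WT and S62A, *TPX2* in WT and T58A, *KIF23* and *HMMR* in S62A, and *NUSAP1* in T58A. *KIF2C* and *CENPA* passed the threshold in no line.

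The direction of these line differences depended on the scale. With FPKM scaled to the spike-ins, the median of all tested genes was lower than in SH-EP by log2 changes of -1.16, -0.88, -1.86 and -0.75 (in the order WT, T58A, S62A, T58A S62A). The medians of the 40 moved with it, to -1.13, -0.80, -1.87 and -0.76, and all members past the threshold were then lower (39, 37, 40 and 34), where 88.5%, 77.6%, 95% and 69.7% of all genes were called lower and 0.994%, 1.87%, 0.389% and 2.27% higher. The rises above are therefore rises relative to the rest of the mRNA, not per spike-in. *MYBL2* on this scale had a mean change of -0.35 and *AURKA* of -0.62, less negative than the median of all genes in each case.

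The second comparison set the 3 mutants beside WT *MYCN* in DMSO, again as deposited. T58A had 8 members higher and 4 lower than WT (background 10.7% and 13% of tested genes), S62A 3 and 9 (10.1% and 14%), and T58A S62A 3 and 6 (9.43% and 14.2%). The medians of the 40 were 0.02, -0.03 and -0.06, beside -0.02 for all tested genes in each comparison. In the mean of the 3 mutants, 3 members were higher and 4 lower (background 8.73% and 13.1%). As shares, 20% of the 40 were higher in T58A and 22.5% lower in S62A. The largest difference was that of *PLK1* in T58A, which was lower than in WT by a log2 change of -0.69 (SE 0.08, adjusted p = 4.0e-07), with no overlap of libraries, whereas S62A and T58A S62A were within 0.08 of WT. *AURKA* was lower in both lines carrying T58A (-0.49 and -0.56) and higher in S62A (0.29), each past the threshold and without overlap with WT.

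*CENPF*, a large kinetochore protein, stood at 59.2, 69.0 and 73.0 FPKM in WT, 89.2, 90.6 and 96.5 in T58A, 69.3, 73.8 and 78.7 in S62A, and 70.9, 79.1 and 84.5 in T58A S62A. It rose against WT in T58A (0.46) and T58A S62A (0.22), as did *MKI67* (0.42 and 0.26), and only the T58A libraries were clear of WT for *CENPF*. *INCENP* stood at 21.9, 22.2 and 23.3 FPKM in WT, 26.4, 27.3 and 28.7 in T58A, 25.1, 26.5 and 27.0 in S62A, and 25.5, 28.0 and 29.8 in T58A S62A, and was higher in all 3 mutants without overlap. *CDC25C* stood at 7.48, 7.63 and 8.53 FPKM in WT, 6.90, 6.90 and 8.24 in T58A, 6.45, 6.95 and 7.59 in S62A, and 4.90, 4.90 and 6.32 in T58A S62A. Its T58A S62A libraries lay below all WT libraries, but the difference missed the threshold (-0.55, adjusted p = 0.059). In S62A, *CDK1*, *MAD2L1*, *BUB3*, *UBE2C*, *CDC25B*, *KIF2C*, *AURKB*, *CDC20* and *BIRC5* were lower than in WT, by log2 changes between -0.37 for *UBE2C* and -0.13 for *BIRC5*. *PRC1*, the microtubule bundler of the midzone, was higher in S62A (0.22) and lower in T58A (-0.17) and T58A S62A (-0.27), the same arrangement as *AURKA*. The mutants share the WT libraries, and without 1 WT library in DMSO, or without 1 S62A library in DMSO, the S62A count fell from 12 to 7, and without the T58A library that stood apart the T58A count was 8 rather than 12. With spike-in scaling the calls differed, with 6 members higher and 0 lower in T58A (background 8.13% and 0.458%), 0 and 39 in S62A (0.181% and 74.8%), and 8 and 0 in T58A S62A (23.2% and 1.02%). On that scale *PLK1* in T58A (-0.39, adjusted p = 0.21) and *AURKA* in T58A (-0.18, adjusted p = 0.53) and T58A S62A (-0.13, adjusted p = 0.57) missed the threshold, *AURKA* in S62A turned to -0.41 (adjusted p = 0.053), and *PRC1* turned in all 3 mutants. *MYCN* mRNA itself differed, with DMSO means of 12.9 FPKM in WT and 13.5 in T58A S62A beside 8.52 in T58A and 5.72 in S62A, and its part in these differences was not tested.

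The third comparison asked how the mitotic genes responded to 6 hours of CYC065, on spike-in scaled FPKM. All 40 fell in all 5 lines. The mean falls over lines ran from 21.3-fold for *CCNF*, 15.5-fold for *AURKA*, 15.04-fold for *CENPA*, 13.2-fold for *CDCA8* and 10.5-fold for *TTK* to 1.58-fold for *PRC1*, 1.70-fold for *MAD2L1* and 1.74-fold for *PTTG1*. Nearly all mRNA fell, so 40 of 40 stands beside 75.7%, 93.7%, 84.2%, 90.2% and 76.3% of tested genes called lower (SH-EP first, then WT, T58A and S62A, and last the double mutant), and none of the 40 stands beside 0.907%, 0.769%, 1.25%, 0.968% and 1.85% called higher. The medians of the 40 were, in the same order, -2.09, -2.07, -1.72, -1.86 and -1.62, whereas those of all tested genes were -1.06, -1.57, -1.08, -1.35 and -0.97. Between 30 and 33 of the 40 fell by more than the median gene of their line. Without the T58A library that stood apart, 40 of 40 were still lower in T58A.

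**Figure D3:**
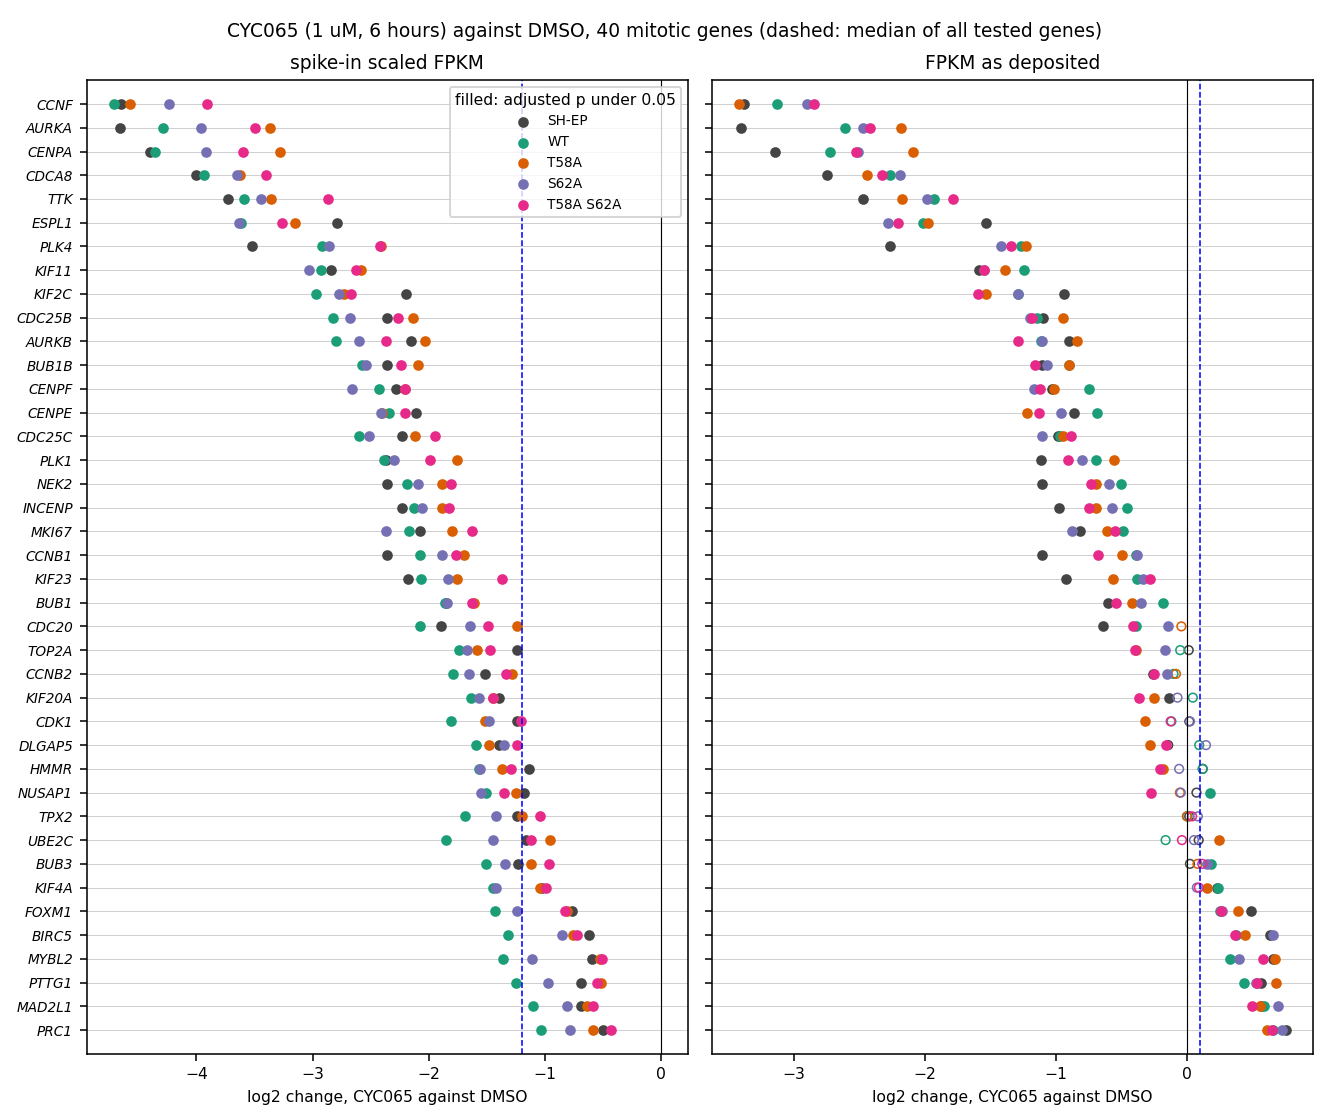
Log2 change with CYC065 (1 μM, 6 hours) against DMSO in each line for the 40 genes, ordered by mean change, on spike-in scaled FPKM (left) and FPKM as deposited (right), with the dashed line at the median of all tested genes (-1.20 and 0.10) and filled points past an adjusted p of 0.05. The order is alike in all lines, from CCNF, AURKA and CENPA at the top to PRC1 at the bottom, and only the right panel has points above 0.

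*CCNF*, whose product is the substrate receptor of an SCF ubiquitin ligase (chromosome 16, 2479395 to 2508855, plus strand, GRCh37), stood at 48.0, 48.2 and 54.5 scaled FPKM in SH-EP in DMSO and at 1.72, 1.78 and 2.24 in CYC065. In WT it went from 18.5, 21.3 and 28.6 to 0.570, 0.826 and 0.926, in T58A from 18.5, 29.8 and 37.2 to 0.855, 1.04 and 1.32, in S62A from 11.4, 12.2 and 14.6 to 0.413, 0.561 and 0.803, and in T58A S62A from 25.6, 30.2 and 33.8 to 1.24, 1.87 and 2.87. No group in CYC065 came near its DMSO group. *CENPA*, the histone H3 variant of centromeres, went from 68.3, 72.3 and 83.3 to 2.81, 3.63 and 3.94 in SH-EP, from 28.3, 35.9 and 36.2 to 1.38, 1.54 and 1.66 in WT, from 32.7, 49.98 and 50.9 to 3.34, 3.999 and 6.42 in T58A, from 14.0, 17.9 and 18.7 to 0.918, 1.06 and 1.07 in S62A, and from 39.4, 42.2 and 50.1 to 2.33, 4.20 and 4.43 in T58A S62A. Because a pseudocount of 0.1 was added, these folds understate the change of the lowest values.

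*AURKA* went from 189, 208 and 209 to 7.50, 7.70 and 8.47 in SH-EP, from 125, 142 and 184 to 6.82, 7.80 and 7.98 in WT, and from 96.4, 114 and 127 to 5.44, 8.02 and 8.07 in S62A. In T58A it went from 91.5, 155 and 157 to 11.9, 12.5 and 13.3, and in T58A S62A from 115, 133 and 161 to 10.2, 12.5 and 13.3. On this scale, all libraries of the lines carrying T58A ended above all others in CYC065, an order that did not hold as deposited. The log2 scaling factors in CYC065 differed by line. They were -1.94 to -1.66 in S62A, -1.47 to -1.10 in WT, -0.51 to -0.46 in T58A and -0.52 to -0.04 in T58A S62A. The processed copy *AURKAPS1* was listed at 1.69 to 8.72 FPKM as deposited over all 30 libraries, with a median of 3.63. Its level in the treated libraries alone is not given here, and the *AURKA* values above are spike-in scaled. Reads shared between the copies cannot be told apart, and their weight in these low *AURKA* values was not tested. *PLK1* went from 283, 287 and 288 to 47.6, 57.8 and 61.9 in SH-EP, from 141, 148 and 239 to 28.0, 32.8 and 38.1 in WT, from 99.2, 141 and 159 to 37.7, 38.5 and 40.01 in T58A, from 86.9, 92.1 and 124 to 16.8, 20.6 and 23.9 in S62A, and from 201, 203 and 256 to 44.9, 56.1 and 66.1 in T58A S62A, a mean fall of 4.46-fold. *AURKB* went from 183, 195 and 206 to 37.9, 46.2 and 47.5 in SH-EP, from 84.3, 90.4 and 145 to 12.6, 15.5 and 16.5 in WT, from 90.6, 134 and 163 to 29.8, 30.9 and 31.2 in T58A, from 48.7, 54.1 and 61.3 to 7.52, 9.36 and 9.97 in S62A, and from 106, 124 and 137 to 19.0, 23.2 and 29.3 in T58A S62A. No group of these kinases overlapped between treatments.

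In the mean over lines, cyclin B1 fell further than its kinase. *CCNB1* went from 368, 386 and 399 to 69.3, 73.6 and 81.8 in SH-EP, from 200, 229 and 293 to 50.6, 58.1 and 60.6 in WT, from 206, 340 and 350 to 84.2, 92.1 and 93.3 in T58A, from 131, 143 and 162 to 34.9, 41.3 and 41.7 in S62A, and from 263, 325 and 336 to 73.0, 96.3 and 105 in T58A S62A. *CDK1* went from 292, 312 and 338 to 106, 149 and 150 in SH-EP, from 114, 135 and 161 to 34.5, 40.1 and 41.8 in WT, from 121, 174 and 187 to 48.0, 57.0 and 61.4 in T58A, from 59.2, 69.7 and 76.2 to 23.5, 24.8 and 24.8 in S62A, and from 145, 185 and 189 to 64.2, 73.5 and 87.7 in T58A S62A. The mean fall was 3.88-fold for *CCNB1* and 2.73-fold for *CDK1*, so the ratio of the pair changed with treatment, as described below. That ratio fell most in SH-EP (group means of 1.23 in DMSO and 0.565 in CYC065) and least in T58A (1.84 and 1.63).

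The transcription factors fell least of the role groups. *FOXM1* went from 174, 177 and 178 to 89.5, 106 and 118 in SH-EP, from 65.6, 71.3 and 111 to 25.4, 29.6 and 35.2 in WT, from 75.1, 114 and 121 to 55.1, 57.4 and 61.1 in T58A, from 46.4, 49.7 and 55.5 to 19.2, 21.4 and 23.6 in S62A, and from 80.1, 99.9 and 119 to 45.04, 58.2 and 65.6 in T58A S62A. *MYBL2* went from 119, 122 and 122 to 65.8, 87.6 and 89.1 in SH-EP, from 87.7, 91.3 and 155 to 34.8, 41.7 and 50.3 in WT, from 75.9, 110 and 126 to 68.1, 71.0 and 73.3 in T58A, from 53.4, 58.8 and 61.3 to 22.0, 28.2 and 30.7 in S62A, and from 114, 120 and 157 to 75.4, 95.7 and 105 in T58A S62A. In T58A, the library that stood apart was the lowest in DMSO for both genes and lay above the CYC065 libraries. Their mean log2 changes, -1.01 and -0.82, were less negative than the median of all genes, -1.20.

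*TOP2A* went from 369, 385 and 415 to 142, 174 and 181 in SH-EP, from 123, 150 and 162 to 38.0, 43.6 and 48.4 in WT, from 128, 208 and 219 to 53.9, 60.1 and 66.6 in T58A, from 83.2, 96.7 and 105 to 27.9, 29.9 and 31.5 in S62A, and from 166, 209 and 221 to 59.9, 72.0 and 82.2 in T58A S62A. *MKI67* went from 142, 143 and 147 to 28.3, 37.3 and 38.1 in SH-EP, from 41.4, 50.3 and 57.0 to 9.70, 11.1 and 11.99 in WT, from 57.8, 94.8 and 97.5 to 22.1, 23.0 and 24.7 in T58A, from 28.2, 34.0 and 38.3 to 6.09, 6.38 and 6.60 in S62A, and from 67.1, 79.9 and 91.5 to 20.2, 26.6 and 30.7 in T58A S62A. Neither gene's groups overlapped between treatments in any line. Both also fell by more than the median gene in every line.

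The genes that fell least were *PRC1*, *MAD2L1* and *PTTG1*. *PRC1* went from 235, 243 and 250 to 152, 177 and 188 in SH-EP, from 98.6, 111 and 144 to 50.3, 57.6 and 63.8 in WT, from 92.0, 146 and 154 to 80.8, 87.2 and 87.3 in T58A, from 77.2, 81.6 and 93.7 to 43.6, 51.2 and 52.2 in S62A, and from 113, 134 and 142 to 82.2, 101 and 105 in T58A S62A. *MAD2L1* went from 280, 288 and 299 to 159, 184 and 196 in SH-EP, from 138, 169 and 190 to 69.7, 79.1 and 81.2 in WT, from 129, 222 and 230 to 107, 127 and 128 in T58A, from 72.9, 81.7 and 83.8 to 42.2, 46.6 and 47.3 in S62A, and from 176, 216 and 230 to 117, 139 and 159 in T58A S62A. *PTTG1* went from 405, 421 and 425 to 229, 253 and 299 in SH-EP, from 185, 205 and 316 to 84.1, 100 and 105 in WT, from 249, 394 and 403 to 227, 235 and 253 in T58A, from 112, 118 and 178 to 59.4, 71.8 and 72.3 in S62A, and from 244, 336 and 343 to 171, 228 and 230 in T58A S62A. *PTTG1* in T58A was the 1 case among 40 genes and 5 lines in which treated and untreated libraries overlapped, through the library that stood apart. Such separation was common on this scale. All 3 treated libraries lay below all 3 in DMSO for 86.8% of tested genes in SH-EP, 94.1% in WT and 76.8% in T58A. The shares were 91.3% in S62A and 75.7% in T58A S62A. Reads of *PTTG1* can be shared with *PTTG2* and *PTTG3P*, which were listed at no more than 2.42 and 1.38 FPKM.

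**Figure D4:**
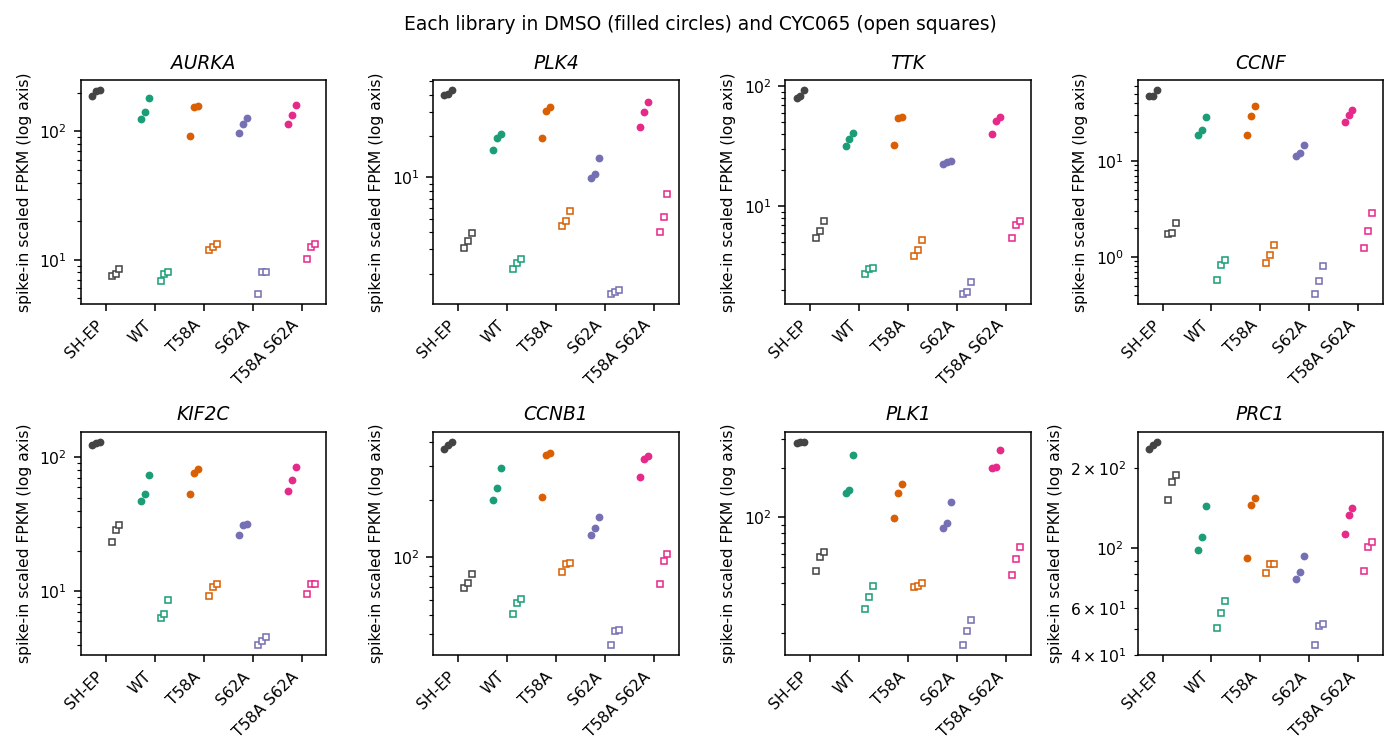
Spike-in scaled FPKM (log axis) of 8 genes in every library by line, with DMSO as filled circles and CYC065 as open squares. On this scale AURKA in CYC065 is highest in the 2 lines carrying T58A, between 10.2 and 13.3, and PRC1 has the smallest gap between treatments.

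By role, the median of the mean falls was -2.12 for the entry genes (6 genes), -2.49 for the centrosome and spindle kinases (4), -2.21 for the passenger complex (4), -1.76 for the checkpoint (5), -1.49 for anaphase and exit (4), -0.91 for the 2 transcription factors, -1.77 for *TOP2A* and *MKI67*, -1.40 for the kinesins and spindle proteins (10) and -2.36 for the centromere genes (3). Each complex was split. In the passenger complex *CDCA8* fell by a log2 change of -3.72 and *BIRC5* by -0.85, in the checkpoint *TTK* by -3.40 and *MAD2L1* by -0.76, and among exit genes *ESPL1* by -3.29 and *PTTG1* by -0.80. Within the kinesins, *KIF11*, which pushes spindle poles apart, and *KIF2C*, which shortens microtubules, fell by -2.80 and -2.67, and *KIF4A* by -1.18. The changes of the 40 genes correlated between pairs of lines with Pearson's r of 0.94 to 0.99 (10 pairs, which share no libraries but share a reagent and a spike-in scaling), as a description across genes. With the log2 level in DMSO the mean change had r = 0.50 over the 40 genes, with gene span -0.15 and with exon length -0.04.

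Without spike-in scaling, on FPKM as deposited, the members divided. *BIRC5*, *MAD2L1*, *PTTG1*, *FOXM1*, *MYBL2* and *PRC1* were higher with CYC065 in all 5 lines, 22 genes were lower in all 5, and *TPX2*, the activator of Aurora A, passed the threshold in none. The share of all tested genes called in all 5 lines was not computed, so these counts have no background beside them. In SH-EP, 7 were higher and 25 lower (background 42.7% and 33.5%), in WT 9 and 23 (37% and 34.2%), in T58A 8 and 27 (38.1% and 33.3%), in S62A 7 and 25 (38.8% and 34.6%), and in T58A S62A 6 and 29 (38.6% and 34.2%). The medians of the 40 ran from -0.84 in SH-EP to -0.37 in S62A, beside 0.06 to 0.15 for all genes. *PRC1* had a mean change of 0.68 and *AURKA* of -2.62 on this scale. *AURKA*, *CCNF* and *CENPA* were thus lower on both scales in every line, and the direction of *PRC1*, *MAD2L1*, *PTTG1*, *MYBL2*, *FOXM1* and *BIRC5* reversed.

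Ratios of partners within a library do not depend on the scale. They were formed after the values were seen and are given without a test. *AURKA* over *TPX2* was 0.643 to 1.44 in the 15 DMSO libraries and 0.0581 to 0.252 in the 15 CYC065 libraries. *ESPL1* over *PTTG1*, the protease over its inhibitor, was 0.0527 to 0.0839 and 0.00800 to 0.0215. *AURKB* over *BIRC5* was 0.657 to 0.936 and 0.197 to 0.323, and *CDC20* over *MAD2L1* 1.01 to 1.48 and 0.509 to 0.923. These 4 ranges did not overlap between treatments, in any line. *CCNB1* over *CDK1* went from 1.18, 1.24 and 1.26 to 0.492, 0.548 and 0.656 in SH-EP, and from between 1.70 and 2.22 to between 1.14 and 1.75 over the *MYCN* lines. Within a line it was lower in CYC065 without overlap in all but T58A, where the highest treated library (1.75) lay above the lowest in DMSO (1.71). *PLK4* over *PLK1* was 0.0866 to 0.230 in DMSO and 0.0528 to 0.148 in CYC065 over all lines, and within each line the treated libraries were all lower. *FOXM1* over *MYBL2* was 0.666 to 1.46 and 0.597 to 1.36 over all lines. Within a line that ratio was lower without overlap in SH-EP, T58A and T58A S62A, and the treatments overlapped in WT and S62A.

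**Figure D5:**
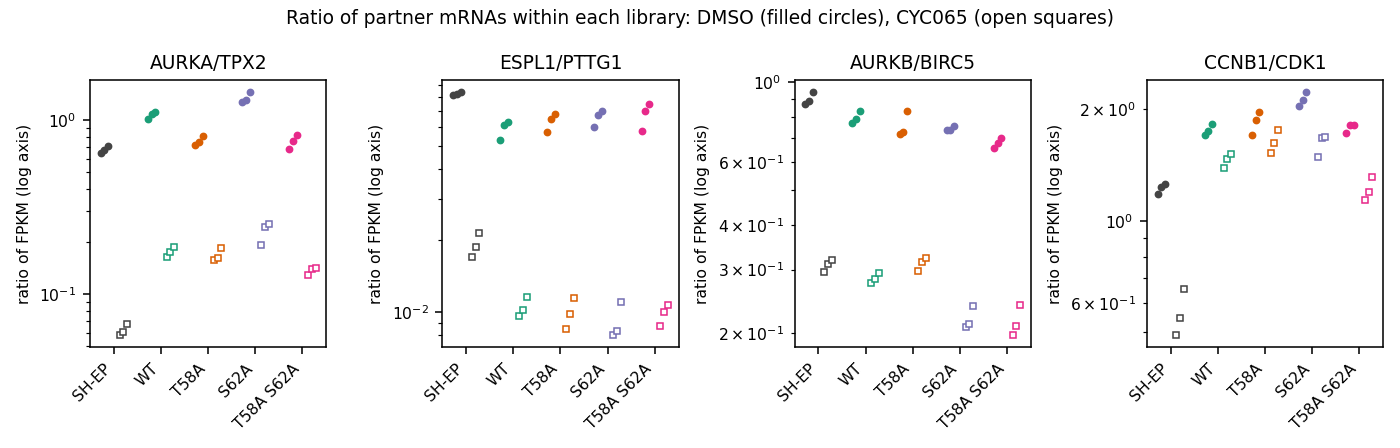
Ratio of the FPKM of 2 partner genes within each library (log axis) by line, with DMSO as filled circles and CYC065 as open squares. AURKA/TPX2, ESPL1/PTTG1 and AURKB/BIRC5 are lower in CYC065 in every library, and CCNB1/CDK1 in CYC065 is no higher than 0.656 in SH-EP and at least 1.14 in the MYCN lines.

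The last comparison set the CYC065 response of each *MYCN* line against that of SH-EP, as an interaction on spike-in scaled FPKM. *AURKA* fell less than in SH-EP in both lines carrying T58A, by 1.29 on the log2 scale for the single mutant (SE 0.27, adjusted p = 0.0060) and 1.17 for the double (SE 0.27, adjusted p = 0.0072), and so did *PLK4* (1.11 in each, adjusted p = 0.032 and 0.019) and, in T58A S62A, *TTK* (0.87, adjusted p = 0.0497). *KIF2C* fell more in WT than in SH-EP (-0.77, adjusted p = 0.042). For *AURKA*, reads shared with *AURKAPS1* may enter the low treated values, as described above. In all, 0 members responded less and 1 more in WT (background 1.89% and 16.3% of tested genes), 2 and 0 in T58A (2.28% and 0.311%), 0 in S62A by limma (3.08% and 1.87%; 4 members had an unadjusted p under 0.05), and 3 and 0 in T58A S62A (5.21% and 0.199%). These counts were unstable, as that of WT ran from 0 to 9 with 1 library left out and those of WT and T58A were 0 when only the compared groups were fitted. With 21 abundant spike-ins the counts of T58A and T58A S62A were 0, and without the T58A library that stood apart that of T58A was 1. In the mean of the 4 lines, *AURKA* (0.88) and *PLK4* (0.87) responded less and no member more (background 4.17% and 1.93%). The responses of the *MYCN* lines were not tested against each other, so none is shown to be particular to the lines carrying T58A. The interactions share the SH-EP libraries.

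*PLK4* (chromosome 4, 128802048 to 128820379, plus strand, GRCh37) went from 39.6, 40.3 and 42.9 scaled FPKM to 3.06, 3.46 and 3.95 in SH-EP, from 15.8, 19.4 and 20.7 to 2.17, 2.37 and 2.55 in WT, and from 9.87, 10.6 and 13.9 to 1.43, 1.47 and 1.52 in S62A. In T58A it went from 19.3, 30.6 and 32.4 to 4.43, 4.79 and 5.71, and in T58A S62A from 23.4, 30.04 and 35.4 to 4.03, 5.16 and 7.54. On this scale, as with *AURKA*, the lines carrying T58A lay below SH-EP in DMSO and above it in CYC065, without overlap. Lower levels in DMSO were common on it, as 77.6% of tested genes were called lower in T58A and 69.7% in T58A S62A. As deposited, both genes were higher than SH-EP in DMSO in these lines. The shares of all tested genes with such separation were not computed. *KIF2C* (chromosome 1, 45205490 to 45233439, plus strand, GRCh37) went from 123, 128 and 131 to 23.5, 28.9 and 31.3 in SH-EP, from 47.5, 53.2 and 73.3 to 6.37, 6.78 and 8.65 in WT, from 53.1, 77.1 and 81.6 to 9.23, 10.8 and 11.2 in T58A, from 26.3, 31.1 and 32.0 to 3.97, 4.26 and 4.60 in S62A, and from 55.9, 68.3 and 85.0 to 9.63, 11.3 and 11.3 in T58A S62A. Its treated libraries in every *MYCN* line lay below those of SH-EP. Treated SH-EP had the highest scaling factors of the treated groups (0.23 to 0.52 on the log2 scale). The share of all tested genes with this arrangement was not computed. *ESPL1*, with the most negative mean interaction (-0.63, adjusted p = 0.12), went from 34.0, 34.3 and 35.3 to 3.88, 5.44 and 5.61 in SH-EP, from 11.6, 12.6 and 16.7 to 0.807, 1.03 and 1.22 in WT, from 16.1, 23.0 and 26.9 to 1.93, 2.47 and 2.69 in T58A, from 7.83, 7.93 and 10.7 to 0.575, 0.603 and 0.653 in S62A, and from 18.3, 19.8 and 23.6 to 1.49, 2.30 and 2.45 in T58A S62A. *TTK*, the checkpoint kinase, went from 80.4, 82.5 and 92.4 to 5.41, 6.19 and 7.51 in SH-EP, from 31.5, 36.6 and 41.1 to 2.71, 2.98 and 3.06 in WT, from 32.4, 54.3 and 55.7 to 3.83, 4.34 and 5.18 in T58A, from 22.3, 23.2 and 23.6 to 1.87, 1.93 and 2.32 in S62A, and from 39.8, 50.9 and 55.4 to 5.39, 6.91 and 7.51 in T58A S62A. In CYC065 its T58A S62A libraries overlapped SH-EP, whereas in DMSO they lay below it. As deposited, *AURKA*, *PLK4*, *CCNB1*, *NEK2* and *KIF23* fell less than in SH-EP in all 4 *MYCN* lines and *KIF2C* fell more in all 4, with totals of 13 less and 3 more in WT (background 10.4% and 18.1%), 8 and 4 in T58A (9.9% and 14%), 11 and 2 in S62A (10.9% and 13.7%), and 8 and 7 in T58A S62A (10.6% and 14.8%). The share of all tested genes called in all 4 lines was not computed.

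Other genes of the cycle were read from lists of the wider machinery. Of 50 further mitosis genes, 17 were higher and 8 lower in the mean over *MYCN* lines against SH-EP as deposited (background 34.6% and 26.3%), with *OIP5* (0.64) and *CCNA2*, or cyclin A2 (0.41), at the upper end and *ASPM* (-0.59) and *CEP55* (-0.50) at the lower. Of 21 S-phase genes, 20 were higher and none lower, with a median of 0.40, led by *CCNE1*, or cyclin E1 (1.51), and the exception was *GINS1* (0.14, adjusted p = 0.15). Among the 40 mitotic genes, in the same mean, 17 were higher and 7 lower with a median of 0.11. Of 17 subunits and partners of the anaphase-promoting complex, 8 were higher and 1, *CDC16*, lower. Of 14 factors of MuvB, DREAM and NF-Y, 6 were higher, led by *E2F5* (1.82), and 1, *LIN9* (-0.31), was lower. Of 8 tested mitotic brakes, 5 were higher, including *PKMYT1* (0.61), the kinase that inhibits CDK1, and *CDKN1A* (-0.11), an inhibitor of cyclin-dependent kinases, was among the 2 that were lower.

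With CYC065 on the spike-in scale, all 50 further mitosis genes fell in the mean over lines (background 94.4% lower), with a median of -1.91 beside -1.90 for the 40. *KIF18B* (-3.47) and *ASPM* (-3.46) fell most and *CKS1B* (-0.57) least. The S-phase genes had a median of -1.05 and the anaphase-promoting complex -1.13, on the other side of the all-gene median of -1.20, although *CCNE2* (-3.83) and *FZR1*, the late activator of that complex (-3.96), fell as far as *AURKA*. Among MuvB, DREAM and NF-Y factors the median was -1.87, with *E2F5* (-4.15) and *LIN37* (-3.62) lowest. The brakes were the list with rises: 3 of 8 were higher (background 1.59%), among them *BTG2* (2.09) and *GADD45A* (1.86), stress-induced genes that restrain the cycle, and 5 were lower, including *CDKN1B* (-2.22).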

How the data were processed

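RNA-Seq was analysed from 30 libraries, 3 for each of 5 SH-EP lines in DMSO or CYC065. According to the study's methods and the labels, the authors put in ERCC spike-ins in proportion to cells, prepared stranded poly(A) libraries, used HISAT2 for alignment to hg19 (GRCh37) and Cufflinks for the deposited FPKM. The deposited FPKM are not scaled to spike-ins and carry no read counts, so counting error cannot be computed. Between 40.6% and 45.8% of genes were at 0 per library, no libraries were identical, and correlations within groups were 0.925 to 0.959.

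Column names give line and treatment, and their suffixes do not correspond to the labelled replicate numbers, so replicates carry no number here. Lines and mutants were compared on FPKM as deposited. CYC065 and its interactions were compared on spike-in scaled FPKM, for which the median of log2(FPKM + 0.1) was equalised between libraries over 55 of 92 spike-ins (those averaging 1 FPKM or more). The 11575 genes averaging 1 FPKM or more entered 1 fit over 10 groups with limma 3.58.1 in R 4.3.3 (lmFit, eBayes with trend) on log2(FPKM + 0.1), two-sided, with Benjamini-Hochberg adjusted p under 0.05 over all genes. The script was tested on simulated data.

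Members and lists were chosen with earlier results of these data known. Values in every library are given for 9 central genes and for the 3 members with the largest mean rise and fall in each kind of comparison, and of each wider list the 2 highest and 2 lowest may be named. The value of 1 gene of these lists is not reported here. *TTK* is given in addition for its interaction, chosen after its values were seen. Positions come from GENCODE release 44 lifted to GRCh37, and promoters from RefSeq, using the first window where a gene had several. *AURKA*, *BIRC5*, *BUB3*, *TTK*, *UBE2C*, *FOXM1* and *TPX2* had no window. Alternatives were pseudocounts of 1 and 0.01, no filter, a filter of 5 FPKM, the other scaling, median centring, 21 spike-ins of at least 50 FPKM, robust eBayes, a fit restricted to the compared groups, an additional 1.5-fold limit, and each library left out.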

Additional observations from a re-analysis of the deposited data

Results flagged for a closer look

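In 6 cases the response of a mitotic gene to CYC065 in a *MYCN* line differed from that in SH-EP by an interaction test (limma, spike-in scaled FPKM). *AURKA*, whose low treated values may include reads of *AURKAPS1*, fell less by 1.29 on the log2 scale in T58A and by 1.17 in T58A S62A. Across 10 other settings these values ranged from 1.22 to 1.41 (past the threshold in 8) and from 0.92 to 1.17 (in 9), and both passed in all 12 fits that left out 1 library. *PLK4* fell less by 1.11 in T58A and by 1.11 in T58A S62A, with ranges of 1.01 to 1.23 (past in 8 of 10) and 0.86 to 1.12 (in 8 of 10). With 1 library left out it passed in 4 of 12 and 8 of 12 fits. *TTK* in T58A S62A differed by 0.865 (0.62 to 0.87, past in 4 of 10, and in 3 of 12 with a library left out). *KIF2C* in WT differed by -0.774 (-0.87 to -0.31, past in 6 of 10, and in 4 of 12).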

How the results depend on the processing

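No paired analysis was possible because the columns carry no replicate number that matches the labels. With the other scaling, members past the threshold numbered 39, 37, 40 and 34 for WT, T58A, S62A and T58A S62A against SH-EP, 6 and 39 for T58A and S62A against WT, and 16, 12, 13 and 15 for the 4 interactions (16, 13, 14 and 15 with median centring). On that scaling the mean line changes reversed for *CCNB1* (-0.71), *AURKA* (-0.62), *AURKB* (-1.01), *PLK1* (-0.94), *FOXM1* (-1.14) and *MYBL2* (-0.35), and the mean CYC065 changes for *FOXM1* (0.33), *MYBL2* (0.52), *PTTG1* (0.55), *MAD2L1* (0.58) and *PRC1* (0.68). Median centring reversed *CDK1* (0.057), *FOXM1* (0.49), *MYBL2* (0.69), *PTTG1* (0.71), *MAD2L1* (0.74) and *PRC1* (0.84) under CYC065. Requiring a 1.5-fold change left 2, 2, 2 and 1 members for the lines and 1, 0 and 0 for the mutants. Fitting only the groups compared gave 7, 7 and 2 for the mutants and 0, 0 and 3 for the interactions of WT, T58A and S62A. The WT interaction count was 0 with a pseudocount of 1, no filter or 21 spike-ins, 3 with a pseudocount of 0.01, and 4 with a filter of 5 FPKM or robust eBayes. With a pseudocount of 1 the S62A interaction count was 3, and with 21 spike-ins those of T58A and T58A S62A were 0, where *AURKA* and *PLK4* (0.74 each) lost their calls in the mean. The cause was not tested.

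With 1 library left out, counts against SH-EP ranged from 20 to 21 in WT, 15 to 17 in T58A, 18 to 20 in S62A and 14 to 18 in T58A S62A. Counts against WT ranged from 8 to 12 in T58A, 7 to 13 in S62A and 6 to 9 in T58A S62A, and CYC065 counts from 38 to 40 in SH-EP, 40 to 40 in WT, 38 to 40 in T58A, 40 to 40 in S62A and 37 to 40 in T58A S62A. Interaction counts ranged from 0 to 9 in WT, 1 to 3 in T58A, 0 to 0 in S62A and 1 to 6 in T58A S62A. Every one of the 12 libraries moved the WT interaction count by over 1.5 times, 8 of 12 that of T58A and 4 of 12 that of T58A S62A. The mean falls of *TOP2A* and *CENPE* in the *MYCN* lines each lost the call without 1 SH-EP library in DMSO, *PLK1* in the mean of mutants without 1 WT library (-0.19), and *PLK4* in the mean interaction without any of 3 SH-EP libraries. Read depth is unknown beyond the relative estimate. CYC065 libraries tended to be shallower, although the ranges overlapped (0.283 to 0.536, beside 0.460 to 1 in DMSO). Low values in CYC065 therefore tend to be the less precise. With 3 libraries a group, small changes can be missed.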
